A study of Mus musculus with 8 samples.

Results

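Keratinocytes that respond to hedgehog signalling, sorted by expression of Gli1 from mouse back skin, were compared with CD34+ keratinocytes of the hair follicle bulge across all measured genes. The comparison used 5 of the 8 arrays of the series, chosen by their labels alone: 2 Gli1+ arrays (replicates 2 and 3) and 3 CD34+ arrays (replicates 1 to 3). All animals were adult Gli1-eGFP/+ mice in telogen, the resting phase of the hair cycle, on an outcrossed Swiss Webster background, so both populations carried the eGFP reporter allele. Per the labels, viable single cells stained for α6 integrin, a basal keratinocyte marker, were collected from pools of 2 mice per replicate. Gli1+ cells were those with GFP, whatever their CD34 staining, and CD34+ cells lacked GFP and stained for CD34. Cells with neither signal formed the third group, interfollicular epidermis (IFE), with 3 arrays, which entered the fit and is given beside the comparison for its levels. Gli1+ cells of replicate 1 gave RNA too poor to analyse, so that pool has no Gli1+ array here. Same-numbered arrays came from the same pool of mice.

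In the hedgehog pathway a secreted ligand binds Ptch1 and relieves its block on Smo, after which Gli transcription factors switch on targets that include Gli1 and Ptch1 themselves, so that Gli1 is widely used as a reporter of the response. The telogen follicle holds hedgehog-responding keratinocytes around the bulge, whose CD34+ cells are slow-cycling stem cells, and CD34 marks the bulge in mouse but not in human follicles. Calcineurin-NFAT signalling is one of the known brakes on division of bulge stem cells.

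The genes used for the sort showed how far the RNA followed the labels. Gli1 had normalised log2 intensities of 8.82 and 8.36 in Gli1+ cells, against 7.06, 8.42 and 7.35 in CD34+ cells. IFE cells had 5.07, 5.32 and 5.01. The Gli1+ and CD34+ ranges overlapped, because the CD34+ array of replicate 2 lay above 1 of the Gli1+ arrays, and the difference between the groups of 0.98 ± 0.42 (log2, SE) did not pass the test (adjusted p = 0.258). The probe was detected on both Gli1+ arrays and on all 3 CD34+ arrays, so the GFP-negative CD34+ population was not free of Gli1 RNA. Cd34 had 8.18 and 8.47 in Gli1+ cells and 8.50, 8.61 and 8.86 in CD34+ cells, with 5.46, 6.31 and 5.44 in IFE cells. Its difference of -0.33 ± 0.35 had an adjusted p of 0.665, a difference smaller than its error, and the Gli1+ cells were sorted without regard to CD34. Itga6, the α6 integrin gene, had 8.61 and 9.29 in Gli1+ cells against 9.08, 9.26 and 9.23 in CD34+ cells (difference -0.24, adjusted p = 0.724).

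The 2 Gli1+ arrays differed from each other more than the CD34+ arrays did. Gli1+ replicate 3 detected 9925 probes and Gli1+ replicate 2 detected 11188, against 12209 to 12601 on the CD34+ arrays. Replicate 3 of Gli1+ lacked 946 probes that all 7 other arrays detected, and replicate 2 lacked 245, against 34 to 92 for the CD34+ arrays. Across genes, the Gli1+ arrays correlated with each other at r = 0.82. Replicate 3 of Gli1+ stood apart from every array, with r of 0.821 to 0.832 with the CD34+ arrays and a score of 75.2 on the first principal component against -26.4 to 4.8 for the 7 other arrays. Replicate 2 of Gli1+ had r of 0.876 to 0.887 with the CD34+ arrays, which had 0.933 to 0.945 among themselves. They differed by more than 2 log2 units in 813 of 9545 genes (8.52%), with replicate 2 higher in 457 and replicate 3 higher in 356, whereas CD34+ replicates 2 and 3 differed that much in 51 genes (0.534%). The median SD over genes was 0.448 for Gli1+ (n = 2), 0.322 for CD34+ (n = 3) and 0.315 for IFE (n = 3).

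Of 9545 genes tested, 136 (1.42%) passed an adjusted p of 0.05 (limma, Benjamini-Hochberg), 55 of them higher (0.576%) and 81 lower (0.849%) in Gli1+ cells. Under cyclic loess scaling the split turned to 106 higher and 82 lower (56.4% higher, against 40.4% here), and on the deposited log2 values it was 54 higher and 50 lower (51.9%). The median difference over all genes was -0.05, and at an unadjusted p under 0.05 there were 1666 genes (17.5%), 734 higher (7.69%) and 932 lower (9.76%). The higher genes rose by 1.41 to 3.33 log2 units, 28 of them by 4-fold or more, and all 55 were detected on both Gli1+ arrays. The lower genes fell by 1.39 to 3.97 on the log2 scale, 41 of them by 4-fold or more, and 19 were undetected on both Gli1+ arrays, 27 were detected on 1 of them and 35 on both. The part of the lower detection on the Gli1+ arrays in these falls was not tested. In all 136 genes the 2 groups did not overlap, as was also so for 31.4% of all genes tested. Each gene was read by its brightest probe. Of the 136 genes 39 had another probe past the detection filter, which for 11 of them included one with the opposite sign and for 21 one with the same sign at an unadjusted p under 0.05. With the shared pool of mice as a block, 1 call held, that of Nfatc4: adjusted p was 0.0711 to 0.134 for the 55 higher genes and 0.0433 to 0.133 for the 81 lower genes. The same gene alone passed in a fit of only the 5 arrays and in a fit with array weights. Single arrays decided the count as well: it was 1196 without Gli1+ replicate 2 and 259 without Gli1+ replicate 3 (78 of the 136 among them), while leaving out CD34+ replicate 1 gave 2, CD34+ replicate 2 gave 1, CD34+ replicate 3 gave 1, IFE replicate 1 gave 44, IFE replicate 2 gave 1 and IFE replicate 3 gave 3.

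**Figure D1:**
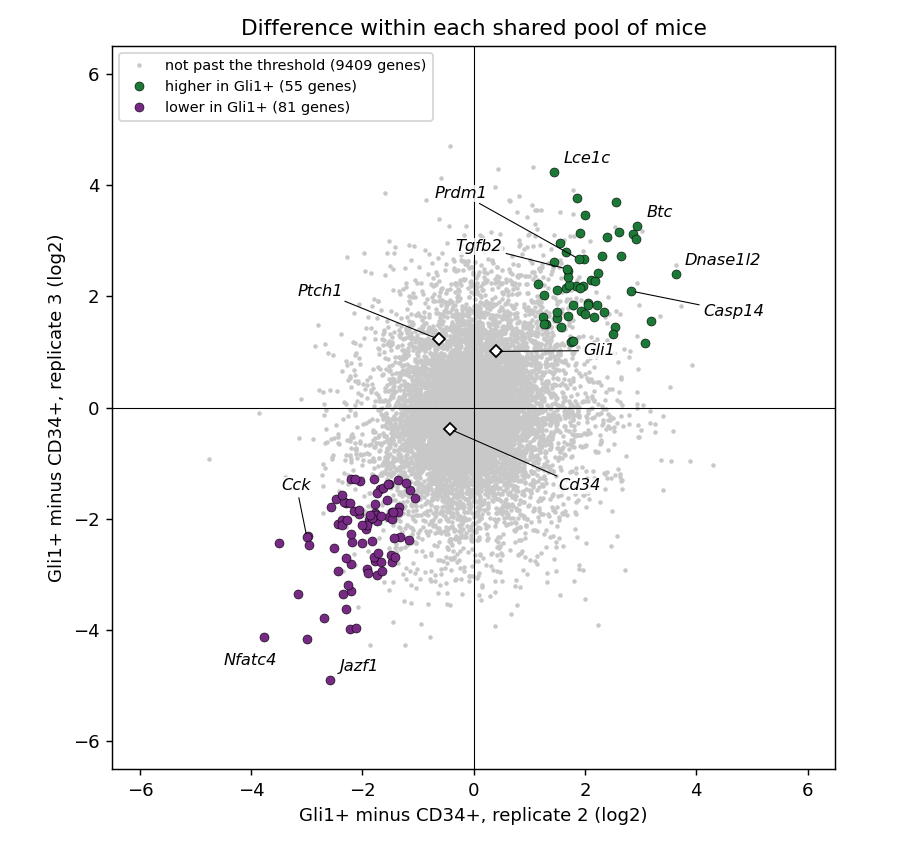
Log2 difference, Gli1+ minus CD34+, within replicate 2 (horizontal) and within replicate 3 (vertical), 1 point per gene, for the 9545 genes tested. The 55 genes higher and the 81 genes lower in Gli1+ cells lie in the upper right and lower left, whereas the white diamonds of Gli1, Ptch1 and Cd34 lie near the centre.

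Nfatc4, a calcineurin-dependent transcription factor, had the most negative difference of all genes. Its log2 intensity was 4.85 and 4.55 in Gli1+ cells, against 8.71, 8.63 and 8.66 in CD34+ cells, and 5.48, 4.74 and 4.78 in IFE cells. It was undetected on both Gli1+ arrays and detected on all 3 CD34+ arrays, so that it was at least 9.19-fold lower in Gli1+ cells, computed against the lowest detected signal of those arrays (log2 difference -3.97 ± 0.32, adjusted p = 0.00273). The call held in all 20 other settings, with adjusted p between 0.00121 and 0.0477 (0.0433 with the pool as a block), and 1 probe measured the gene. Against IFE cells, the Gli1+ difference for Nfatc4 was -0.30 (adjusted p = 0.686). Of the 13 NFAT factors and calcineurin genes tested it was the only one to pass. Their differences were positive in 4 and negative in 9 (53.3% negative over all genes), with a median of -0.37. Nfatc1, the family member known for holding bulge stem cells quiescent and named here after its values were seen, had 8.36 and 8.16 in Gli1+ cells and 7.52, 7.84 and 8.21 in CD34+ cells, and its other probes gave differences of -1.07, 1.05 and 0.37, so that no direction can be given for it.

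Prdm1, which encodes the transcriptional repressor Blimp1 of the junctional zone and sebaceous gland, and Tgfb2, a secreted TGF-beta ligand, lay on the other side. Prdm1 had 8.32 and 9.20 in Gli1+ cells, against 5.93, 6.43 and 6.53 in CD34+ cells and 5.66, 5.78 and 6.05 in IFE cells, a rise of 2.46 ± 0.36 or 5.52-fold (adjusted p = 0.0225, and 0.0711 with the pool as a block). Tgfb2 had 8.89 and 9.28 in Gli1+ cells, against 7.47, 7.21 and 6.79 in CD34+ cells and 7.07, 6.80 and 6.62 in IFE cells. It rose by 1.93 ± 0.33 or 3.8-fold (adjusted p = 0.0299, and 0.0774 with the pool as a block). For both genes each Gli1+ array was above every CD34+ and IFE array. Among the 42 BMP and TGF-beta pathway genes tested, Tgfb2 was the only call in either direction, and the median was -0.28. Among the 14 isthmus, junctional zone and infundibulum genes, Prdm1 was the only call, 10 differences were positive (46.7% over all genes), and the median was 0.46. Krt79 (1.52, adjusted p = 0.055) and the stem cell receptor gene Lgr6 (1.51, adjusted p = 0.144), both known from the upper follicle, had positive differences that missed the threshold.

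**Figure D2:**
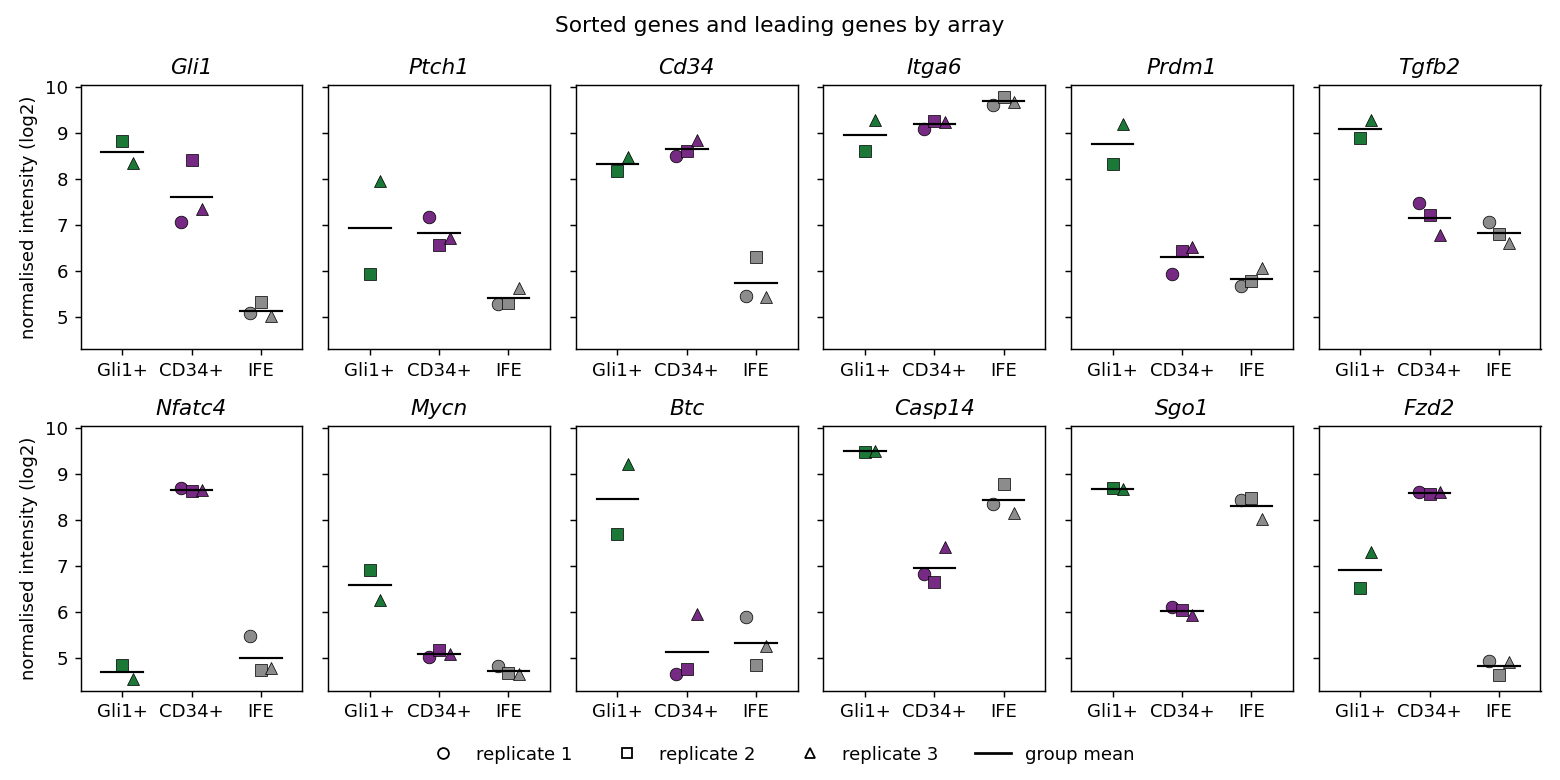
Normalised log2 intensity on each array for the genes of the sort (Gli1, Cd34, Itga6), the hedgehog target Ptch1 and 8 genes of the comparison. Symbols mark the replicate and lines the group means. Nfatc4 is at 4.55 to 4.85 in Gli1+ cells and 8.63 to 8.71 in CD34+ cells, while Ptch1 differs between the 2 Gli1+ arrays (5.93 and 7.95).

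Promoters of Nfatc4 and Prdm1, a marker gene of each direction, and of Sh3kbp1 are shown because the motif through which Gli factors bind DNA was searched in the promoters of the called genes that the table held. The sequences are those of RefSeq (GRCm38.p6), 250 bases before to 50 after the gene start, on the gene's strand. Nfatc4 lies on the plus strand at chr14:55824545-55824844, Prdm1 on the minus strand at chr10:44458699-44458998, and 1 of the 4 promoters of Sh3kbp1 on the plus strand at chrX:159942443-159942742. Capitals mark the motif.
Nfatc4: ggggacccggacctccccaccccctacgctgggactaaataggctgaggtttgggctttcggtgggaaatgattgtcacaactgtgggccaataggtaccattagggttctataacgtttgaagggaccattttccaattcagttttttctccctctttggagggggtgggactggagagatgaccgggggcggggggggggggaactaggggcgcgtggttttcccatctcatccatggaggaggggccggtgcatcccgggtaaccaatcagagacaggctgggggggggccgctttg
Prdm1: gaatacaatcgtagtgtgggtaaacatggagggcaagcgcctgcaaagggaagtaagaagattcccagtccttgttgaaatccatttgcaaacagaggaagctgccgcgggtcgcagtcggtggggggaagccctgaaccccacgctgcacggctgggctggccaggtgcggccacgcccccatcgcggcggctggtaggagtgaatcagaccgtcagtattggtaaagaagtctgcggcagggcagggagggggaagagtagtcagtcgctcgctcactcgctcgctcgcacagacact
Sh3kbp1: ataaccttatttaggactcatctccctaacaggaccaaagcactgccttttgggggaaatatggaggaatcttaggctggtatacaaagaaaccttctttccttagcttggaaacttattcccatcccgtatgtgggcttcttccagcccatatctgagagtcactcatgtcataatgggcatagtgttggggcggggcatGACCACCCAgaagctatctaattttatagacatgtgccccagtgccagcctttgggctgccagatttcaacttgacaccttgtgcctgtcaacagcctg
The motif GACCACCCA, or TGGGTGGTC on the other strand, was absent from the 48 listed promoters of 43 higher genes and present in 1 of the 77 listed promoters of 59 lower genes, against 83 of 32851 promoters of all genes (0.253%). The 1 match was that of Sh3kbp1, which encodes an adaptor protein of receptor endocytosis and was named for it after its values were seen. Sh3kbp1 had 6.53 and 7.57 in Gli1+ cells and 8.75, 8.89 and 9.14 in CD34+ cells, a fall of 1.88 on the log2 scale (adjusted p = 0.0441, and 0.0923 with the pool as a block) by its brightest probe. Its other probes gave differences of -1.13, -0.608 and 0.571, the last in the opposite direction. The Ptch1 promoter in this window also lacked these letters.

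Of the hedgehog targets, 11 of 15 listed genes could be tested, 1 rose (0.576% of all genes did) and none fell, and the median difference was 0.04. The 11 include Gli1 itself, whose reporter defined the Gli1+ cells. The riser was Mycn, a proto-oncogene of the Myc family, with 6.91 and 6.26 in Gli1+ cells, against 5.01, 5.17 and 5.08 in CD34+ cells and 4.83, 4.67 and 4.64 in IFE cells (1.50 ± 0.30, adjusted p = 0.0456, and 0.113 with the pool as a block). Ptch1, the receptor and a direct target, had 5.93 and 7.95 in Gli1+ cells and 7.17, 6.57 and 6.72 in CD34+ cells, so that its 2 Gli1+ arrays lay on opposite sides of the CD34+ arrays (difference 0.12 ± 0.52, adjusted p = 0.93). Hhip, another direct target, was detected on none of the 5 arrays. The target list also holds cell cycle and survival genes: Ccnd1 (-0.03), Ccnd2 (-0.10), Cdk6 (0.12), Foxm1 (0.04) and Bcl2 (-0.91, with 6 other probes between -1.66 and -0.357) did not pass. The listed targets Igfbp6 (-0.14) and Snai1 (0.56) did not pass either. The Wnt antagonist Sfrp1, at 9.17 and 9.27 in Gli1+ cells and 10.85, 10.50 and 10.11 in CD34+ cells, had a difference of -1.27 that missed the threshold (adjusted p = 0.0855).

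Among hedgehog ligands, receptors and transducers, 9 of 19 listed genes could be tested and none passed in limma. At an unadjusted p under 0.05, 1 was lower (9.76% of all genes were). Of the 9 differences 8 were negative (53.3% over all genes), and the median was -0.34. The coreceptor gene Gas1 had 8.83 and 8.97 in Gli1+ cells and 9.37, 8.91 and 9.44 in CD34+ cells (difference -0.34, adjusted p = 0.603). Smo, the signal transducer, had 5.71 and 6.56 in Gli1+ cells and 5.49, 6.32 and 6.98 in CD34+ cells (-0.12). The repressor gene Gli3 had 5.50 and 4.55 in Gli1+ cells and 7.40, 5.15 and 5.00 in CD34+ cells (-0.83, adjusted p = 0.545), and only CD34+ replicate 1 lay above both Gli1+ arrays. Cdon, Disp1, Evc, Hhat, Ift88 and Kif3a had differences between -0.95 (Kif3a) and 0.06 (Disp1).

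The largest rise in Gli1+ cells was that of Btc, which encodes betacellulin, a ligand of the EGF receptor. It had 7.69 and 9.22 in Gli1+ cells, against 4.66, 4.75 and 5.96 in CD34+ cells and 5.88, 4.86 and 5.25 in IFE cells. The rise was 3.33 ± 0.55 or 10.1-fold (adjusted p = 0.0294, and 0.0711 with the pool as a block). Btc was detected on only 1 CD34+ array, so this fold rests in part on undetected signal. Ereg, the related ligand epiregulin, named after its values were seen, had 7.07 and 8.95 in Gli1+ cells and 4.80, 5.28 and 5.47 in CD34+ cells and just missed the threshold (2.82, adjusted p = 0.0506). Of the 36 FGF, EGF and IGF ligands and receptors tested, Btc was the only one to rise and the IGF-binding protein gene Igfbp5 the only one to fall, with a median of -0.16.

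Genes of terminal keratinocyte differentiation had mostly positive differences. Of 29 tested, 2 rose (0.576% of all genes did) and none fell, 26 differences were positive (46.7% over all genes) and the median was 1.17, and in 19 genes (against 13.5% of all genes) both Gli1+ arrays lay above all CD34+ arrays. Casp14, a caspase of cornification that acts in filaggrin breakdown, had 9.50 and 9.50 in Gli1+ cells, against 6.82, 6.66 and 7.41 in CD34+ cells and 8.36, 8.80 and 8.16 in IFE cells. Its rise was 2.53 ± 0.34 or 5.8-fold (adjusted p = 0.0225). Sprr1b, a cornified envelope precursor, had 7.55 and 8.20 in Gli1+ cells and 5.79, 4.63 and 5.17 in CD34+ cells, a rise of 2.68 ± 0.39 (adjusted p = 0.0225). With the pool as a block the adjusted p of these 2 genes was 0.0774 and 0.0711. Krt1 (1.71, adjusted p = 0.0919), Krt10 (1.04, adjusted p = 0.151), Sprr1a (1.55, adjusted p = 0.055) and Dsc1 (2.15, adjusted p = 0.0964), keratin, envelope and desmosome genes of suprabasal cells, did not pass. Lor, the main cornified envelope protein gene, had 11.15 and 12.49 in Gli1+ cells against 10.89 to 11.13 in CD34+ cells (0.81, adjusted p = 0.412), and Hrnr, a filaggrin relative, had 8.11 and 9.44 in Gli1+ cells against 6.47, 6.61 and 7.53 in CD34+ cells (1.91, adjusted p = 0.16). These last 2, with Krt10 and Sprr1a, were named after their values were seen. The summed intensity of the 29 genes was 30176 and 40339 in Gli1+ cells, 17906 to 23190 in CD34+ cells and 18872 to 27107 in IFE cells. All 3 populations were sorted for a basal cell integrin, and the part of any differentiated cells in these values was not tested.

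Late cornified envelope genes, a list added after their values were seen, gave 2 rises among 8 tested (0.576% of all genes rose). The median was 2.18, with 1.04 within replicate 2 and 3.17 within replicate 3. Lce1c had 7.10 and 9.33 in Gli1+ cells and 5.45, 5.65 and 5.10 in CD34+ cells (2.81, adjusted p = 0.0447), and Lce1l had 6.78 and 7.47 in Gli1+ cells and 4.76, 5.08 and 5.01 in CD34+ cells (2.17, at least 4.05-fold, adjusted p = 0.0225). These genes are close relatives, and their probes may share signal. With the pool as a block their adjusted p was 0.109 and 0.0774.

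The 15 largest rises also held several enzymes and lipid-handling proteins. Lipn, an epidermal acid lipase, had 7.0 and 8.52 in Gli1+ cells against 4.70, 4.45 and 4.83 in CD34+ cells and was at least 6.3-fold higher (adjusted p = 0.0225). Dnase1l2, a nuclease of cornifying keratinocytes, had 8.25 and 7.17 in Gli1+ cells against 4.56, 4.61 and 4.77 in CD34+ cells and was at least 6.07-fold higher by its brightest probe (adjusted p = 0.0225), while its other probes gave differences of -0.072 and 1.08. Fabp5, the epidermal fatty acid-binding protein, had 7.01 and 8.16 in Gli1+ cells and 4.83, 5.10 and 5.03 in CD34+ cells by its brightest probe, at least 5.57-fold higher, and its other probe gave a smaller difference of 1.57. Sdr16c5, a retinol dehydrogenase, rose by 2.47, Ptdss2, a phosphatidylserine synthase, by 2.45, and the transporter gene Flvcr2 by 2.84. Alox12, an arachidonate lipoxygenase that was named after its values were seen, had 7.65 and 9.15 in Gli1+ cells and 6.09, 5.34 and 6.42 in CD34+ cells (2.45, adjusted p = 0.0435), while its other probe gave 0.201. Scgb1a1, a secretoglobin best known from airway club cells, had 7.55 and 8.31 in Gli1+ cells and 4.82, 4.94 and 5.16 in CD34+ cells, a rise of 2.96. Actr5, a subunit of the INO80 chromatin remodeller, was at least 5.76-fold higher, with 6.51 and 8.76 in Gli1+ cells. Over the 15 leading rises the adjusted p was 0.0191 to 0.0456, and 0.0711 to 0.109 with the pool as a block. Fabp5 was the only call among 7 sebaceous gland genes (median 0.40), and none of 37 lipid and cholesterol synthesis genes passed (median 0.29, 7 higher and 1 lower at an unadjusted p under 0.05). Of all genes, 7.69% were higher and 9.76% lower at that p.

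**Figure D3:**
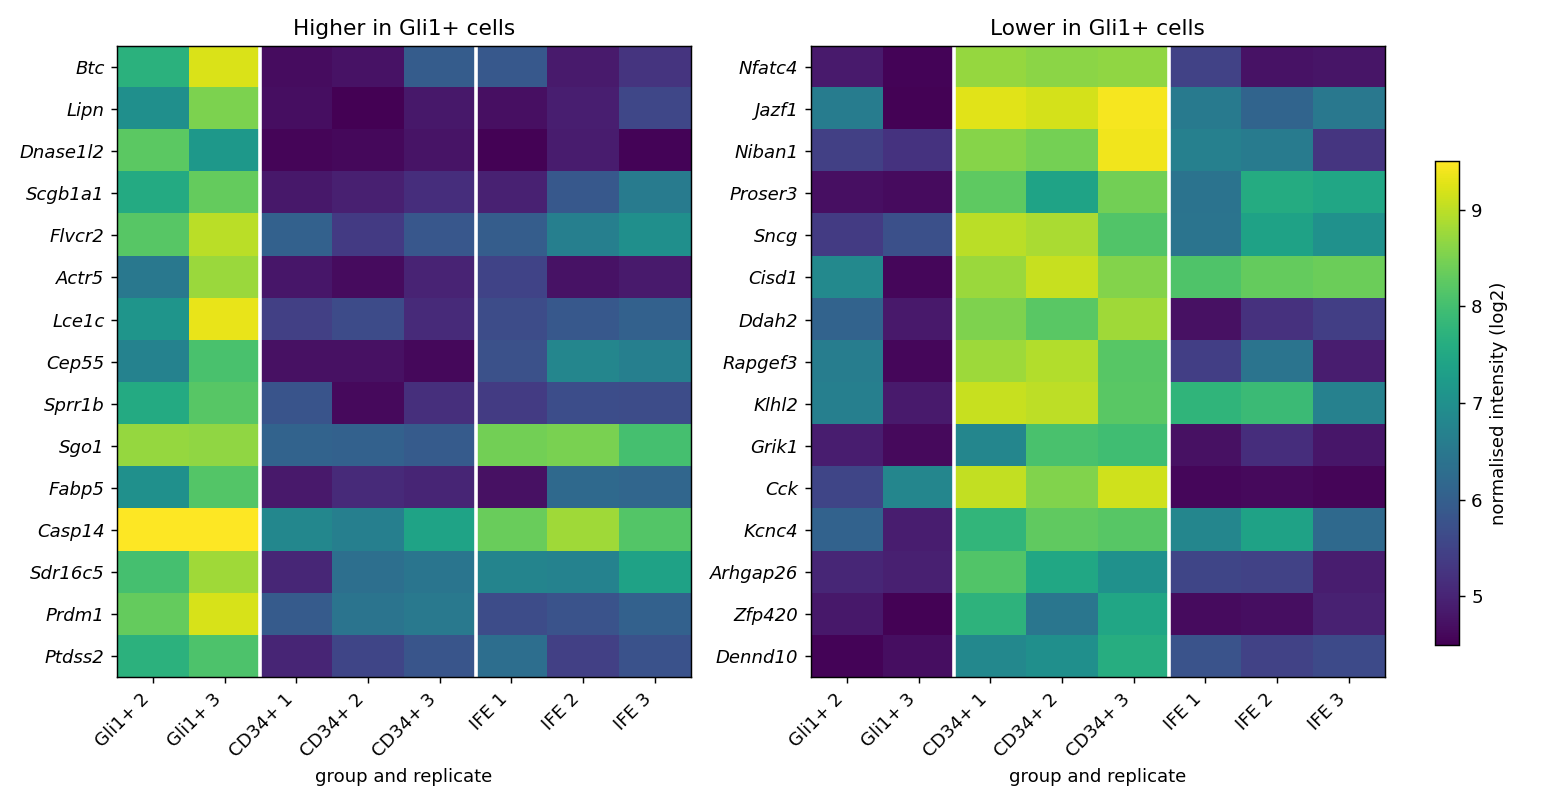
Normalised log2 intensity of the 15 genes with the largest rise (left) and the 15 with the largest fall (right) in Gli1+ cells, with genes in rows and the 8 arrays in columns. The fall of Nfatc4 to 4.55 and 4.85 in Gli1+ cells and the levels of Sgo1 in Gli1+ (8.67 and 8.71) and IFE cells (8.02 to 8.49) can be read against the CD34+ columns.

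Cell cycle genes likewise had mostly positive differences. Of 39 cell cycle genes tested, 2 rose (0.576% of all genes did) and none fell, and 34 differences were positive (46.7% over all genes). The median was 0.78, with 0.44 within replicate 2, 1.15 within replicate 3 and 0.346 on the deposited log2 values. The list summed to 7368 and 9179 in Gli1+ cells, 4513 to 5148 in CD34+ cells and 8970 to 10551 in IFE cells. Plk1, a mitotic kinase, had 7.93 and 8.75 in Gli1+ cells, against 5.21, 6.21 and 6.54 in CD34+ cells and 8.77, 8.40 and 8.59 in IFE cells (2.35 ± 0.43, adjusted p = 0.0387). Tpx2, a spindle assembly factor, had 6.69 and 7.46 in Gli1+ cells and 4.80, 4.45 and 5.03 in CD34+ cells, and was at least 3.91-fold higher (adjusted p = 0.0383). Outside the list, Sgo1, the protector of centromeric cohesion, had 8.71 and 8.67 in Gli1+ cells, 6.10, 6.05 and 5.94 in CD34+ cells and 8.44, 8.49 and 8.02 in IFE cells, a rise of 2.66 ± 0.29 (adjusted p = 0.0191) that its second probe gave as 0.744. Cep55, a protein of the final cut between daughter cells, was at least 4.89-fold higher, with 6.72 and 8.07 in Gli1+ cells and 4.73, 4.73 and 4.61 in CD34+ cells. With the pool as a block the adjusted p of Plk1 was 0.0991, of Tpx2 0.11, of Sgo1 0.0711 and of Cep55 0.0824. Birc5 (1.42, adjusted p = 0.114) and Top2a (1.23, adjusted p = 0.294), named after their values were seen, did not pass, and 1 of the other probes of Birc5 gave -0.287. Among the 5 arrays compared, Top2a was high on Gli1+ replicate 3 alone (5.21 and 7.57 in Gli1+ cells, 5.11 to 5.24 in CD34+ cells). In IFE cells Top2a had 6.49 to 6.89 and Birc5 had 6.70 to 7.14. Of the 25 G1 cyclins, kinases and inhibitors, Mycn, which is also on that list, was the only call, and the median was -0.02.

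Replication-dependent histone genes, whose RNAs accumulate during DNA synthesis, had positive differences in most members. In this list, added after the values were seen, 7 of 42 genes tested rose (0.576% of all genes did) and none fell. Of the differences 39 were positive (46.7% over all genes), and in 34 genes both Gli1+ arrays lay above all CD34+ arrays (13.5% of all genes did). The median difference was 1.17, with 1.18 within replicate 2 and 1.4 within replicate 3. H2bc14 had 10.64 and 10.70 in Gli1+ cells, against 8.97, 8.68 and 8.51 in CD34+ cells and 9.42, 10.20 and 9.67 in IFE cells (1.95 ± 0.33, adjusted p = 0.0294). H3c6 had 10.17 and 10.41 in Gli1+ cells and 8.50, 8.51 and 8.25 in CD34+ cells (1.87, adjusted p = 0.0238), and the other called genes were H1f5, H2bc12, H3c1, H3c4 and H4c3. Histone genes of 1 class are near-identical copies and their probes cannot be assigned to single genes with certainty. The summed intensity of the list was 31588 and 31625 in Gli1+ cells, 13577 to 16738 in CD34+ cells and 19408 to 30581 in IFE cells. Adjusted p for the 7 genes was 0.0774 to 0.111 with the pool as a block.

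Genes of the bulge had mostly negative differences. Of 23 tested, 1 fell (0.849% of all genes did) and none rose, 19 differences were negative (53.3% over all genes) and the median was -0.79. In 12 genes, against 17.9% of all genes, both Gli1+ arrays lay below all CD34+ arrays. Cd34, by which the CD34+ cells were sorted, is counted among the 19 and among the 12. The call was Fzd2, a Wnt receptor gene, with 6.52 and 7.30 in Gli1+ cells, against 8.62, 8.57 and 8.62 in CD34+ cells and 4.94, 4.63 and 4.90 in IFE cells (-1.69 ± 0.32, adjusted p = 0.0431, and 0.101 with the pool as a block). It was also the only call among 42 Wnt pathway genes, whose median was -0.07. Other bulge genes, named after their values were seen, did not pass. The stem cell receptor gene Lgr5 had 7.28 and 8.07 in Gli1+ cells, against 8.48, 9.17 and 8.75 in CD34+ cells and 5.33, 4.75 and 4.93 in IFE cells (-1.12, adjusted p = 0.153). Sox9, a transcription factor that maintains bulge stem cells, had 8.89 and 9.20 in Gli1+ cells and 9.99, 10.04 and 9.86 in CD34+ cells (-0.92, adjusted p = 0.207). Lhx2 (-0.79), Dkk3 (-1.27), Postn (-1.04) and Krt15 (-0.46) had adjusted p between 0.135 (Dkk3) and 0.497 (Krt15), and 1 of the other probes of Dkk3 gave 0.389. Wif1, a secreted Wnt inhibitor, went the other way, with 8.67 and 8.72 in Gli1+ cells and 7.55, 5.74 and 7.43 in CD34+ cells (1.79, adjusted p = 0.107). Krt5 (-0.36) and Krt14 (-0.17), keratins of all basal cells, did not pass.

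**Figure D4:**
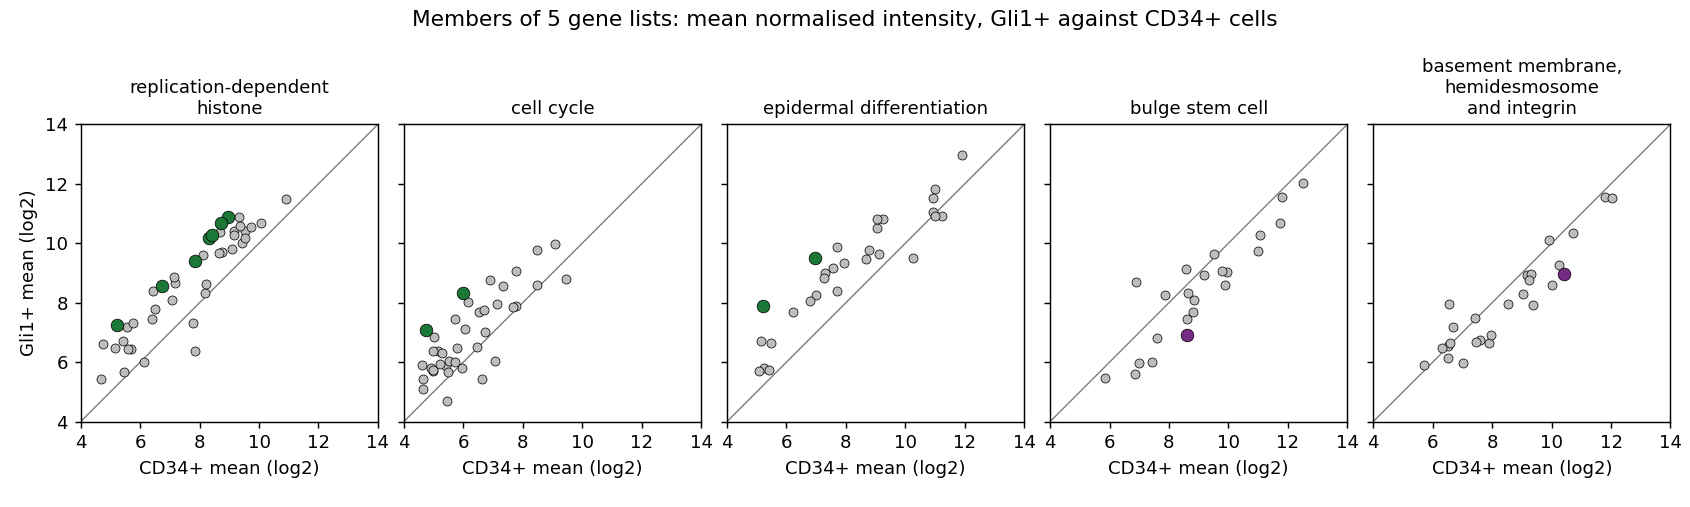
Mean normalised log2 intensity of each tested member of 5 gene lists in Gli1+ cells (vertical) against CD34+ cells (horizontal), with the line of equality. Green marks genes that rose and purple genes that fell. Histone (34 of 42 not overlapping, against 13.5% of all genes), cell cycle and differentiation genes lie mostly above the line. The histone list was added after its values were seen. Bulge genes (19 of 23, against 53.3% of all genes) lie mostly below, with the sort gene Cd34 among the 19.

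Of 21 collagens and matricellular genes, 4 fell (0.849% of all genes did) and none rose, and in 9 both Gli1+ arrays lay below all CD34+ arrays (17.9% of all genes). The median was -0.01, with 0.18 within replicate 2 and -0.86 within replicate 3, and it changed sign in 6 of 20 other settings. Col6a1, a collagen VI chain, had 5.69 and 5.90 in Gli1+ cells and 7.63, 8.17 and 7.55 in CD34+ cells, a fall of 1.99 on the log2 scale (adjusted p = 0.0291), with -1.20 and -1.33 by its other probes. Col8a2, a collagen VIII chain, had 5.24 and 5.85 in Gli1+ cells and 7.22, 7.79 and 7.65 in CD34+ cells (-2.01, adjusted p = 0.0294). Mmp14, a membrane-bound matrix protease, had 6.40 and 6.15 in Gli1+ cells, against 8.15, 7.89 and 8.80 in CD34+ cells and 8.14, 8.10 and 7.97 in IFE cells (4.01-fold lower, adjusted p = 0.0294). Sparc, a collagen-binding matrix glycoprotein, had 8.26 and 8.05 in Gli1+ cells, 10.33, 10.13 and 9.98 in CD34+ cells and 8.47, 8.16 and 7.20 in IFE cells (-1.99, adjusted p = 0.0447), with -1.24 by its other probe. Adjusted p for these 4 was 0.0774 to 0.0991 with the pool as a block.

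Col6a1 and Sparc are also on the list of fibroblast and dermal papilla markers, of which 6 of 16 could be tested and 3 fell (0.849% of all genes did). The third was S100a4 (9.15 and 9.09 in Gli1+ cells, 10.51, 10.49 and 10.88 in CD34+ cells, difference -1.51, adjusted p = 0.0432, and 0.111 with the pool as a block). The summed intensity of that list was 2140 and 2643 in Gli1+ cells, 4807 to 5167 in CD34+ cells and 560 to 838 in IFE cells. Of the other tested members, Col1a2, a type I collagen chain, had 7.23 and 4.65 in Gli1+ cells, 8.01, 7.75 and 7.53 in CD34+ cells and 4.52, 5.28 and 4.99 in IFE cells (-1.83, adjusted p = 0.173, named after its values were seen), and was detected on 1 Gli1+ and all 3 CD34+ arrays, while Alx4 and Fbln1 were detected on all 5. The only positive difference of the list, 0.74, was that of Alx4 or Fbln1, and the other 5 were negative (53.3% over all genes). Col3a1, Pdgfra, Lum, Corin, Dpt and Twist2 were detected on none of the 5 arrays, Col1a1 on 1 CD34+ array, and Dcn and Vim on 1 Gli1+ array each. In sorted populations, fewer cells of a type and less RNA per cell cannot be told apart. The part of fibroblast RNA in the falls of Col6a1, Sparc and S100a4 was not tested.

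At the basement membrane, 1 of 26 genes fell (0.849% of all genes did) and none rose. Of the differences 18 were negative (53.3% over all genes), and the median was -0.42. Lamb3, a laminin chain that anchors basal cells to the basement membrane, had 8.72 and 9.18 in Gli1+ cells, against 10.25, 10.50 and 10.47 in CD34+ cells and 9.75, 9.86 and 10.01 in IFE cells (-1.46 ± 0.29, adjusted p = 0.0456, and 0.11 with the pool as a block). Krt6b, a keratin induced in stressed epidermis and the only call among 5 tested hair shaft and root sheath keratins, had 6.34 and 5.29 in Gli1+ cells and 7.54, 8.63 and 7.99 in CD34+ cells (-2.24, adjusted p = 0.0456, and 0.11 with the pool as a block), with -1.41 by its other probe. Igfbp5, an IGF-binding protein, had 5.67 and 5.54 in Gli1+ cells, 7.48, 7.56 and 7.56 in CD34+ cells and 4.69, 4.94 and 4.96 in IFE cells (-1.93 ± 0.28, adjusted p = 0.0225, and 0.0774 with the pool as a block).

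Among 49 bulge and follicle transcription factors, Prdm1 rose, Meis1 fell and the median was -0.32. Meis1, a homeobox partner of Hox proteins, had 5.37 and 5.12 in Gli1+ cells, 6.84, 7.12 and 7.15 in CD34+ cells and 6.30, 6.30 and 6.48 in IFE cells (-1.79, adjusted p = 0.0262, and 0.0774 with the pool as a block). None of 24 Hox cluster genes passed, and 6 were lower at an unadjusted p under 0.05 (9.76% of all genes were). Of their differences 18 were negative (53.3% over all genes), and the median was -0.36. Hoxb7 showed how far the Gli1+ arrays could part, with 7.40 and 4.53 in Gli1+ cells and 8.68, 8.86 and 8.39 in CD34+ cells (-2.68, adjusted p = 0.0798). Il31ra, the receptor gene for the itch cytokine interleukin 31, was the only call among 31 cytokines, chemokines and receptors, with 7.73 and 7.37 in Gli1+ cells, 9.25, 9.51 and 9.26 in CD34+ cells and 5.19, 5.02 and 4.94 in IFE cells (-1.79, adjusted p = 0.0285, and 0.081 with the pool as a block). Sema3d, a secreted axon guidance cue, was the only call among 30 neurotrophins and axon guidance genes, with 8.29 and 8.30 in Gli1+ cells, 6.60, 6.51 and 7.10 in CD34+ cells and 8.65, 8.91 and 8.85 in IFE cells (1.56, adjusted p = 0.0447, and 0.114 with the pool as a block).

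The 15 largest falls also held Cck, Sncg, Grik1, Rapgef3 and Kcnc4. Cck, the neuropeptide cholecystokinin, had 5.55 and 6.80 in Gli1+ cells, against 9.04, 8.55 and 9.13 in CD34+ cells and 4.59, 4.62 and 4.56 in IFE cells (-2.73 ± 0.39, 6.64-fold lower, adjusted p = 0.0225). Sncg, gamma-synuclein, had 5.37 and 5.71 in Gli1+ cells, against 8.99, 8.87 and 8.15 in CD34+ cells (-3.13 ± 0.39, adjusted p = 0.0225), with -1.54 by its other probe. Grik1, a kainate receptor subunit, was undetected in Gli1+ cells (4.89 and 4.62) and had 6.80, 8.06 and 7.96 in CD34+ cells, at least 4.41-fold lower by its brightest probe, while its other probe gave a smaller difference of -0.924. Rapgef3, the cyclic AMP sensor Epac1, had 6.63 and 4.58 in Gli1+ cells and 8.76, 8.92 and 8.21 in CD34+ cells (-3.03 ± 0.61, adjusted p = 0.0456). The potassium channel gene Kcnc4 fell by 2.61, while its other probe gave -0.053. Kcnk2, a mechanically gated potassium channel gene named after its values were seen, had 6.39 and 5.77 in Gli1+ cells and 8.14, 8.65 and 8.96 in CD34+ cells (-2.50, adjusted p = 0.0225, and 0.0773 with the pool as a block), with -1.57 by its other probe.

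Jazf1, a zinc finger transcription cofactor, had the second most negative difference, with 6.60 and 4.53 in Gli1+ cells, 9.27, 9.17 and 9.43 in CD34+ cells and 6.55, 6.11 and 6.50 in IFE cells (-3.73 ± 0.52, adjusted p = 0.0225). Niban1 had 5.45 and 5.23 in Gli1+ cells and 8.59, 8.45 and 9.39 in CD34+ cells (-3.47). Cisd1, a mitochondrial iron-sulfur protein gene, had 6.85 and 4.59 in Gli1+ cells, against 8.76, 9.08 and 8.57 in CD34+ cells and 8.13, 8.31 and 8.37 in IFE cells, so that it was low in Gli1+ cells against both other groups. Ddah2, an enzyme that degrades an inhibitor of nitric oxide synthase, fell by 3.05 on the log2 scale, and the kelch protein gene Klhl2 fell by 3.01. Proser3 (at least 5.9-fold), Arhgap26 (at least 4.25-fold), Zfp420 (at least 3.37-fold) and Dennd10 (at least 3.2-fold) were lower and undetected on both Gli1+ arrays. The second probe of Proser3 gave -0.698 and that of Dennd10 -0.308. For the 15 leading falls adjusted p was 0.00273 to 0.0456, and 0.0433 to 0.0774 with the pool as a block, where Nfatc4 alone passed.

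**Figure D5:**
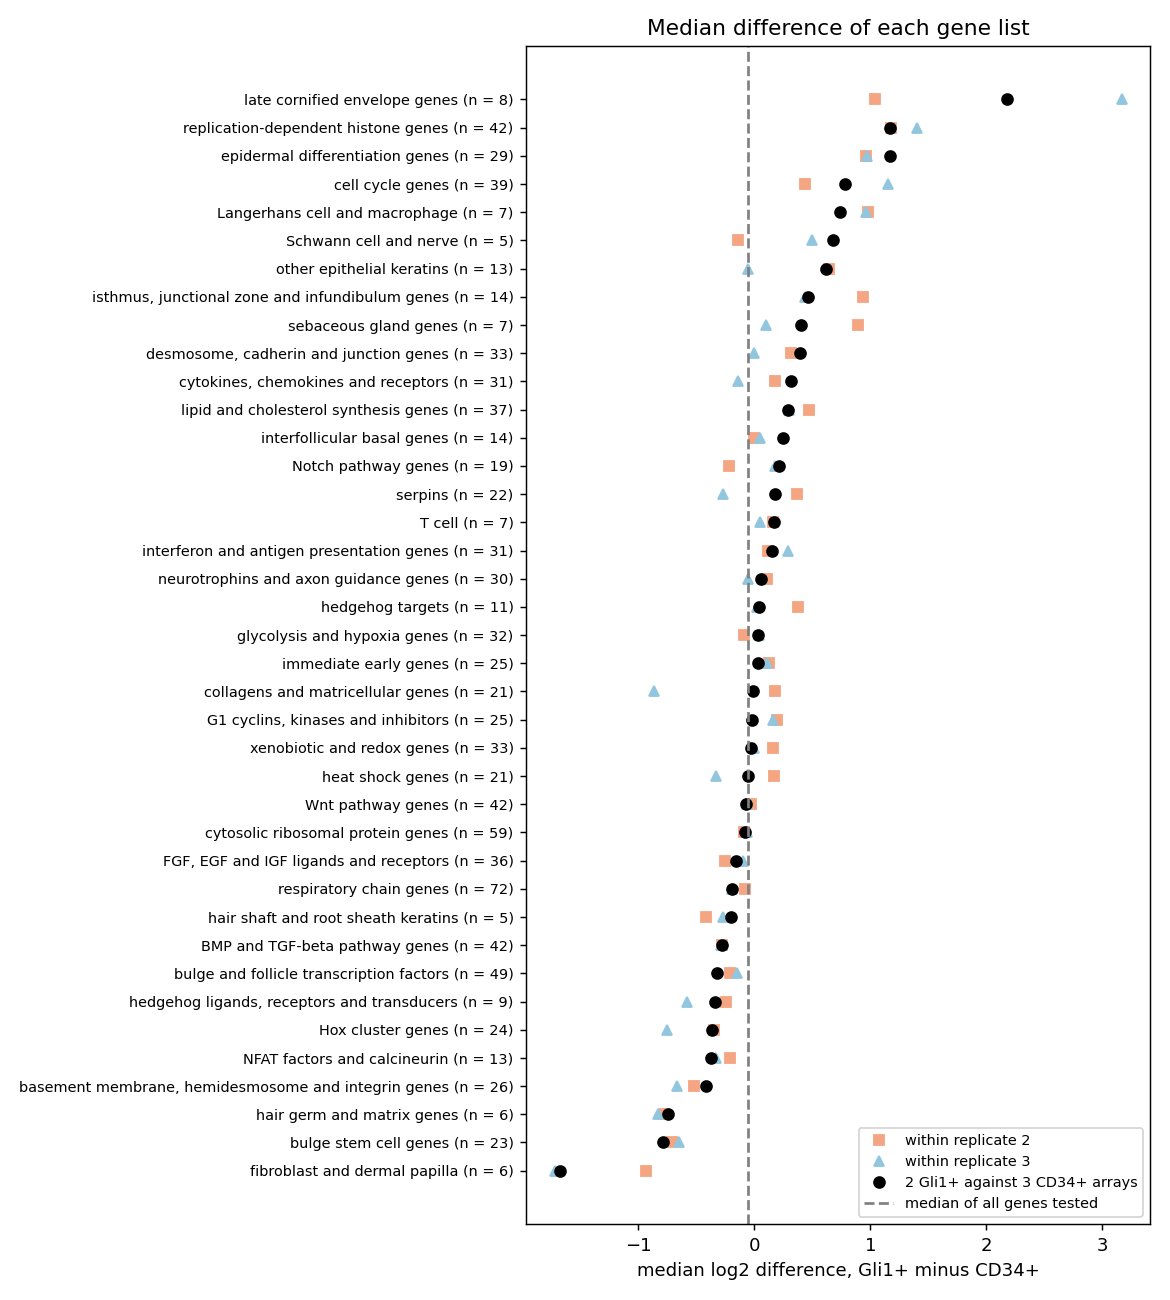
Median log2 difference, Gli1+ minus CD34+, of each gene list with at least 5 tested members, in all arrays (circles) and within each shared pool (squares and triangles). The dashed line is the median of all genes tested (-0.05). Late cornified envelope and histone lists lie high, but they were added after their values were seen. Of the other lists, differentiation and cell cycle genes lie highest, and bulge and fibroblast lists lowest.

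Of the 42 lists, 24 held no call in limma. Genes of general metabolism were among them: the median was -0.08 for 59 cytosolic ribosomal protein genes, -0.19 for 72 respiratory chain genes, 0.03 for 32 glycolysis and hypoxia genes and -0.03 for 33 xenobiotic and redox genes. At an unadjusted p under 0.05, 7.69% of all genes were higher and 9.76% lower, the shares for all such counts in this paragraph. None of the ribosomal genes was higher and 2 were lower at that p, and 1 respiratory gene was higher and 3 were lower. Of the glycolysis genes 1 was higher and 2 were lower, and 2 xenobiotic genes were higher and 3 were lower. Cell contact and signalling lists without a call were the 33 desmosome, cadherin and junction genes (median 0.39, 7 higher and none lower at an unadjusted p under 0.05), the 19 Notch pathway genes (0.21, 4 and 4), the 31 interferon and antigen presentation genes (0.15, 3 and 1) and the 22 serpins (0.18, 2 and 0). The 14 interfollicular basal genes had a median of 0.25, and the 6 hair germ and matrix genes one of -0.74. Immediate early genes (25 tested, median 0.03) and heat shock genes (21 tested, median -0.05) held no call either. Over the 20 other settings the immediate early median ran from -0.068 to 0.155 and changed sign in 2. The heat shock median ran from -0.167 to 0.249 and changed sign in 6. Genes of both lists respond to cell isolation, and its part was not tested. Counting the 2 lists added after the values were seen, 31 of the 136 called genes were on a list and 105 were on none.

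Markers of other cells that the gate could hold were read on the same arrays. The 7 tested of 14 Langerhans cell and macrophage genes all had positive differences (46.7% over all genes) with no call and a median of 0.74. Their summed intensity was 1180 and 1663 in Gli1+ cells, 650 to 796 in CD34+ cells and 481 to 745 in IFE cells. H2-Ab1, an MHC class II gene, had 8.83 and 9.44 in Gli1+ cells and 8.06, 7.74 and 8.08 in CD34+ cells (1.17, adjusted p = 0.101). Hba-a1, a haemoglobin gene and the only 1 of 7 red blood cell markers tested, had 6.49 and 8.17 in Gli1+ cells and 5.71, 5.31 and 5.67 in CD34+ cells (1.77, adjusted p = 0.0878). The T cell list, with 7 of 13 genes tested, summed to 1487 and 1509 in Gli1+ cells and 1195 to 1658 in CD34+ cells. Of its differences 4 were positive and 3 negative, from -0.39 to 1.93, with a median of 0.17 and no call. The highest was that of Cd3e, with 6.90 and 7.39 in Gli1+ cells against 5.60, 5.01 and 5.04 in CD34+ cells (1.93, adjusted p = 0.063). Schwann cell and nerve genes, 5 of 12 tested, summed to 1976 and 2001 in Gli1+ cells, 1143 to 1290 in CD34+ cells and 2046 to 2494 in IFE cells. Most of these sums came from Egr2, which is also on the immediate early list. Egr2 had 10.82 and 10.43 in Gli1+ cells and 9.83, 10.07 and 9.93 in CD34+ cells (0.68, adjusted p = 0.268). The median of the Schwann cell and nerve list was 0.68, with -0.14 within replicate 2 and 0.5 within replicate 3. Of 10 melanocyte genes 4 could be tested, with no call and a summed intensity of 227 and 399 in Gli1+ cells, 343 to 449 in CD34+ cells and 129 to 185 in IFE cells. Mitf, a melanocyte transcription factor, had 8.14 and 6.90 in Gli1+ cells, 8.07, 8.53 and 7.95 in CD34+ cells and 5.05, 5.06 and 5.27 in IFE cells, and Pmel was detected on 1 Gli1+ and 3 CD34+ arrays, whereas the enzyme genes Tyr, Tyrp1 and Dct were detected on none of the 5. Of 12 Merkel cell genes, Piezo2 (detected on all 5 arrays) and Ndnf (on 4) could be tested and did not pass, while Krt20, Atoh1 and Sox2 were detected on none. Of 10 endothelial genes, Egfl7 (detected on 1 Gli1+ and 1 CD34+ array) and Plvap (on 2 CD34+ arrays) could be tested and did not pass, while Cdh5, Emcn and Vwf were detected on none. The summed intensity was 110 and 112 in Gli1+ cells against 81 to 110 in CD34+ cells for the Merkel cell list, and 62 and 65 in Gli1+ cells against 53 to 95 in CD34+ cells for the endothelial list. The part of the immune and blood transcripts in the genes higher in Gli1+ cells was not tested.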

How the data were processed

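Gene expression was measured on Illumina bead arrays, 1 per sample. The members, gene lists and tests were chosen with earlier results of these data known. Per the file headers, the authors deposited for each probe an intensity averaged over beads and a detection p-value. GenomeStudio 2010.3 was used, per the submitters' processing notes. A genome build is not given in the sources used here, and the 16 other value columns (bead number and bead error) were not used. The deposited table of log2 values equalled log2 of the raw intensity within 5.5e-05 and served as an alternative.

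Of 25697 probes, 23978 carried 1 gene symbol and 1719 none. Intensities were background-corrected and quantile normalised (neqc, offset 16, limma 3.58.1, R 4.3.3). The 14252 probes detected (detection p-value below 0.05) on 2 or more arrays were kept, and the probe with the highest mean stood for each of 9545 genes. All 8 arrays were fitted with 1 mean per group (lmFit, eBayes, 5 residual and 4.84 prior degrees of freedom). P-values were two-sided and Benjamini-Hochberg adjusted over all genes, and the fit was tested on simulated data. The simulated arrays all varied alike and shared no pool of mice. That test therefore cannot speak for the wider spread of the Gli1+ arrays or for the shared pools. Where the dimmer group had no detected array, folds are "at least", against the higher of each array's lowest detected signal and the gene's own. The number of arrays limits the precision.

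Same-numbered arrays share their pool of mice, per the labels. Their deviations from the group means correlated at -0.031 to 0.091, against -0.056 to 0.056 for arrays of different number. With 2 Gli1+ arrays, their deviations mirror each other by construction (r = -1). For that group these values cannot show whether pools share variation. The pool as a block was an alternative, and 20 alternatives were run.

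Genes were named by rule: the sort and marker genes, the 15 largest differences per direction among calls that did not overlap, and per list up to 6 calls or, without one, 2 genes with the smallest p. Histone and late cornified envelope lists and 34 genes were added after values were seen.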

Additional observations from a re-analysis of the deposited data

How the results depend on the processing

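The 136 calls rest on few arrays. The count stayed within 1.5 times on the deposited log2 values (104), under normexp (200), cyclic loess (188) and median centring (147), with no detection filter (132), detection on at least 3 arrays (128) or on 2 of the 5 arrays (138) and the mean of probes (142), and reached 208 without background correction. The genes called changed more than the count. Of the 136 calls, 75 were kept on the deposited log2 values, 98 with no detection filter and 108 without background correction. With the mean of probes 112 were kept, and 114 to 136 in the other settings just listed. The count was 1 with the shared pool of mice as a replicate block (Nfatc4, adjusted p = 0.0433), 1 with array weights and 1 in the fit of only the 5 arrays. Leaving out 1 array gave 1 to 1196 calls, and in the fits with 1 Gli1+ array left, that array is assumed to vary like the other groups. Paired by pool, Nfatc4 alone passed. The call of Dnase1l2 turned to -0.072 (adjusted p = 0.933) with detection on at least 3 arrays, where another probe stood for the gene. Over the named genes and all alternatives, 2228 values kept their direction and side of the threshold, 625 lost the threshold, 74 gained it, 44 changed sign without passing in either fit and 1 was reversed (Dnase1l2). The medians of the differentiation (0.809 to 1.48), cell cycle (0.346 to 1.02), histone (0.795 to 1.24), bulge (-0.845 to -0.551) and fibroblast (-1.71 to -0.992) lists kept their sign in all 20 alternatives, while that of hedgehog targets (-0.034 to 0.225) changed sign in 3. Folds are bounded only where no array of the dimmer group was detected. Where only some of its arrays were undetected, the full difference is given and depends on values near the lowest detected signal (log2 5.08 to 5.62). Such genes include Btc, detected on 1 CD34+ array, and Jazf1 and Rapgef3, each detected on 1 Gli1+ array.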

Other observations

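Several called genes outside the lists, chosen after their values were seen, add named functions to both sides of the comparison. Crem, a cyclic AMP-responsive transcription factor, had 7.98 and 7.89 in Gli1+ cells and 6.17, 5.65 and 6.17 in CD34+ cells (1.94, adjusted p = 0.0291) by its brightest probe, while its other probes gave 2.05 and -0.169. Scnn1b, a subunit of the epithelial sodium channel, had 6.61 and 6.99 in Gli1+ cells and 5.05, 4.62 and 5.30 in CD34+ cells (1.81, adjusted p = 0.0305). Krt42, a type I keratin, had 7.73 and 6.64 in Gli1+ cells and 4.81, 4.54 and 5.09 in CD34+ cells (2.37, adjusted p = 0.0248). Kpna2, a nuclear import receptor, had 7.52 and 7.35 in Gli1+ cells, 5.40, 5.76 and 6.15 in CD34+ cells and 7.70, 8.19 and 7.69 in IFE cells (1.67, adjusted p = 0.0456).

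Has2, a hyaluronan synthase, had 6.33 and 6.32 in Gli1+ cells and 7.85, 7.80 and 8.19 in CD34+ cells (-1.62, adjusted p = 0.0447). Me2, a mitochondrial malic enzyme, was undetected in Gli1+ cells (5.02 and 4.60) and had 7.88, 7.38 and 6.71 in CD34+ cells, at least 3.63-fold lower. Trpv4, a cation channel opened by warmth and swelling, and Aqp1, a water channel, were also undetected on both Gli1+ arrays and were at least 1.99-fold and at least 1.43-fold lower, with -1.77 and -1.63 (log2) by the other probes of Trpv4. With the pool of mice as a block, the adjusted p of these 8 genes was 0.0711 (Me2) to 0.128 (Aqp1), past no threshold. No explanation of these differences was tested.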
